A study of Mus musculus with 71 samples.

Results

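The postsynaptic scaffold genes considered here are Shank1, Shank2, Shank3, Homer1, Homer2, Homer3, Dlg4, Dlgap1 and Dlgap3. They were taken by symbol from the gene tables of the study, in which all 9 were found among 37681 gene symbols. The rule for their choice uses no measured value. RNA was measured in the nucleus accumbens (NAc), ventral tegmental area (VTA) and prefrontal cortex (PFC) of wild-type C57BL/6 mice (C57BL/6J in the methods), male and female, that had self-administered intravenous cocaine or saline. Adult mice, 8 weeks old, took cocaine at 0.7 mg/kg per infusion on a fixed-ratio 1 schedule in daily 2 h sessions over 21 days, and were then kept in abstinence for 1 day (early) or 28 days (late). Each of the 12 groups (3 regions, cocaine or saline, 1 or 28 days) had 6 libraries, except the saline VTA group at 28 days, which had 5, for 71 libraries in all. Every group shared the strain, the genotype, the handling of the self-administration task and the punch dissection, and saline mice received no cocaine. Tissue came from punches of 1 mm sections, so each library mixed neurons and glia. The labels do not tell which libraries were male or female, how many mice a library held, or which regions came from the same mouse. The p-values below therefore measure the spread between libraries.

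The postsynaptic density is the protein layer beneath excitatory synapses. Dlg4 encodes PSD-95, the membrane-near scaffold that holds glutamate receptors through its PDZ domains. Dlgap1 and Dlgap3 encode SAPAP1 and SAPAP3, which bind the guanylate kinase domain of PSD-95 and link it to the SHANK proteins (Shank1, Shank2 and Shank3) in the deeper layer. Homer1, Homer2 and Homer3 encode the Homer proteins, which bind SHANK and tie group I metabotropic glutamate receptors to inositol trisphosphate receptors. Homer1 also makes a short, activity-induced form, Homer1a, that lacks the coiled coil and competes with the long forms. The counts are per gene, so short and long forms of Homer1 were not told apart. In medium spiny neurons, the principal neurons of the NAc, SHANK3 and SAPAP3 are the well-known scaffolds of the cortical input synapse.

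In the mm9 build of the deposited tables, the genes lie on 7 chromosomes. The SHANK genes are Shank1 (ENSMUSG00000038738, chr7:51565623-51613721, plus strand), Shank2 (ENSMUSG00000037541, chr7:151187833-151610399, plus strand) and Shank3 (ENSMUSG00000022623, chr15:89330054-89390692, plus strand). The Homer genes are Homer1 (ENSMUSG00000007617, chr13:94073712-94174917, plus strand), Homer2 (ENSMUSG00000025813, chr7:88745367-88851811, minus strand) and Homer3 (ENSMUSG00000003573, chr8:72806726-72818260, plus strand). The PSD-95 gene is Dlg4 (ENSMUSG00000020886, chr11:69830587-69859034, plus strand). The SAPAP genes are Dlgap1 (ENSMUSG00000003279, chr17:70318413-71170753, plus strand) and Dlgap3 (ENSMUSG00000042388, chr4:126846448-126914266, plus strand). All values below are counts or levels over the whole gene, not over one exon.

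Promoter windows, the 250 bases before a transcription start, were read from RefSeq (build GRCm38.p6) for 7 of the 9 genes, in 12 windows. Shank1 and Shank2 had no entry. The first window of each of the 3 genes with the largest NAc to VTA difference is printed 5′ to 3′, since much of the NAc to VTA result below rests on them. They are Shank3 (chr15:89499358-89499607, plus strand), Homer1 (chr13:93303507-93303756, plus strand) and Dlgap3 (chr4:127172630-127172879, plus strand). Capitals mark a match on either strand to the Egr motif GCGTGGGCG, the Sp motif GGGCGG or the TGACG core of the cAMP response element, motifs bound by factors that synaptic activity regulates or, for Sp, by general promoter factors.
Shank3: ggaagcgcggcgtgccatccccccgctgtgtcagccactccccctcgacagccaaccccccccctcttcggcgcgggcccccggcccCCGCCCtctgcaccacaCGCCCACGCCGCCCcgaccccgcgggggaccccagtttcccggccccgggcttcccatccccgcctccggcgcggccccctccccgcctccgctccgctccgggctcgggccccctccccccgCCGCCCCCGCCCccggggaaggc
Homer1: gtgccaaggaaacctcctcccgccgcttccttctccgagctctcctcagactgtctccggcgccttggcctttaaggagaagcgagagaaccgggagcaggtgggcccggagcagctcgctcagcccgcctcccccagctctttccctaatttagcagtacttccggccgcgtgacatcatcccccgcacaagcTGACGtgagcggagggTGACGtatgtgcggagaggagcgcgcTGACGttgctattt
Dlgap3: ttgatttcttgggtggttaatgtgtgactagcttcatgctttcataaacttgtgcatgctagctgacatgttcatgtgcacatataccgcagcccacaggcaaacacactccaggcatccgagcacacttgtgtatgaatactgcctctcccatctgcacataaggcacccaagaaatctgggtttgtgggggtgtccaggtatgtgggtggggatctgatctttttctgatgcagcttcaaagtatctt
The Egr motif was found in Shank3 alone among the 12 windows and in 0.536% of all 32851 windows of this length. TGACG was found in Homer1, 3 times in the printed window, and in Dlg4, against 17.8% of all windows. The Sp motif was found in Shank3, Homer2, Homer3 and Dlg4, against 32.7% of all windows, and in Shank3 1 of its matches overlaps the Egr match. Neither the full cAMP response element TGACGTCA, which contains TGACG (1.55% of windows), nor the NBRE AAAGGTCA that NR4A receptors bind (1.34%) was found in any of the 12. No capitals fall in the Dlgap3 window. A match is a description of the letters and was not tested as a binding site.

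Libraries held between 20971967 and 49700932 reads assigned to genes. The rarest of the scaffold mRNAs, Homer3, had 70 to 770 reads per library and the most abundant, Dlg4, had 4742 to 44095, so every gene was far above the counting floor. Medium spiny neuron genes marked the NAc, dopamine neuron genes the VTA and cortical excitatory genes the PFC, as labelled. In saline mice at 28 days, 5 of 6 medium spiny neuron genes were higher in the NAc than in the VTA (median log2 difference 6.10) and 5 of 5 dopamine neuron genes were lower (median -8.29). The PFC had 5 of 5 cortical excitatory genes higher than the NAc (median log2 difference, NAc minus PFC, -3.17). Saline PFC library 4 at 28 days stood apart. Its 6 medium spiny neuron genes summed to 734 RPKM (read counts divided by gene length and sequencing depth) against 62.9 to 78.2 in the other 5 saline libraries, and its cortical genes summed to 461 RPKM against 668 to 770. Some results that include it are also given without it, such as the Shank3 difference between NAc and PFC.

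**Figure D1:**
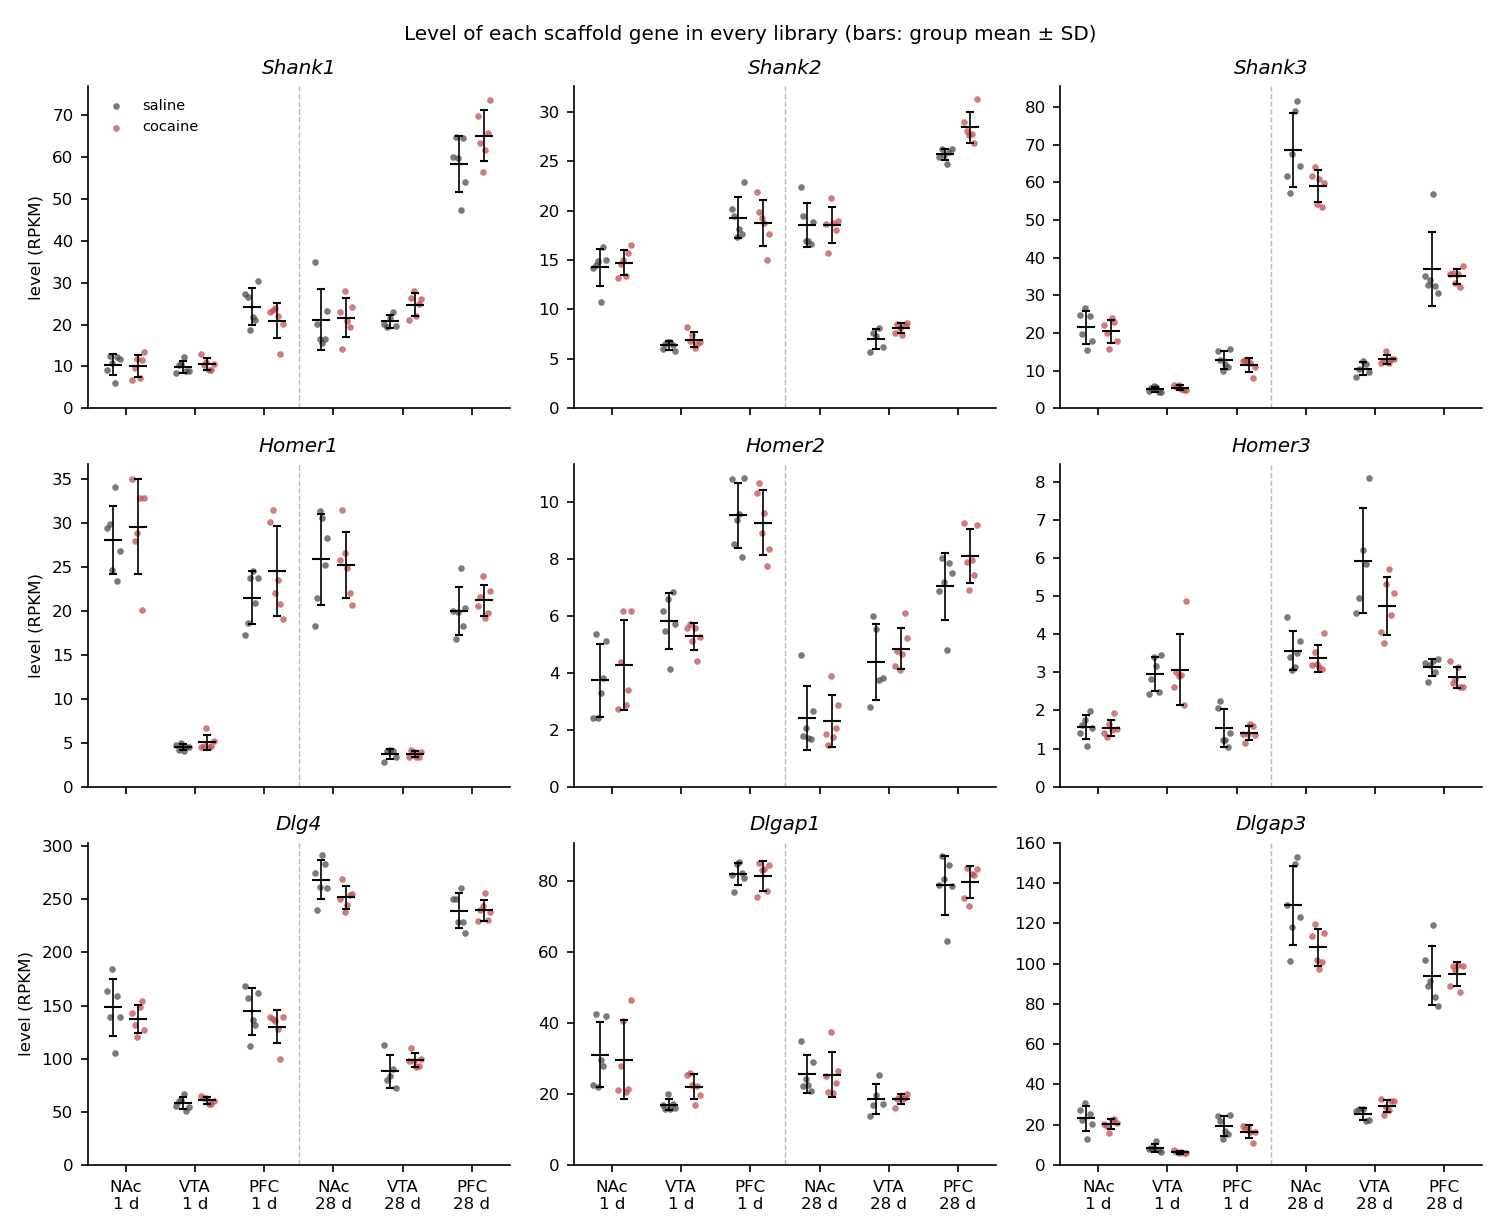
Level of each scaffold gene (y axis, RPKM, linear and starting at 0) in all 71 libraries, by region and days of abstinence (x axis), with saline and cocaine libraries in different colours and bars for the group mean ± SD. Saline and cocaine points overlap in nearly every pair of groups. Among saline libraries at 28 days, all regions lie apart from each other only for Shank2 and Shank3. Between time points, the saline NAc libraries overlap for Homer1, Homer2 and Dlgap1 and lie apart for the other genes. In the NAc at 28 days, for example, Shank3 runs from 53.4 to 81.7 RPKM over both treatments and in the VTA from 8.25 to 15.3.

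The first comparison asked how the scaffold differs between the regions of mice that took no drug, at 28 days, where all tables hold counts. PSD-95 mRNA dominated in every region. Dlg4 ran from 240 to 291 RPKM in the NAc (median 268), from 72.8 to 113 in the VTA (median 83.9) and from 218 to 261 in the PFC (median 239). The VTA libraries were all below every NAc and PFC library, and the NAc and PFC ranges overlapped. Dlg4 was 3.30-fold higher in the NAc than in the VTA (log2 1.72 ± 0.096 SE, adjusted p = 8.1e-11 by edgeR's quasi-likelihood test over all genes), while NAc and PFC did not pass the test (log2 0.13, 95% interval -0.06 to 0.31, adjusted p = 0.273).

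Of the SHANK genes, Shank3 was highest in the NAc, and Shank1 and Shank2 were highest in the PFC. Shank3 ran from 57.2 to 81.7 RPKM in the NAc (median 65.9), from 8.25 to 12.6 in the VTA (median 10.4) and from 30.5 to 56.9 in the PFC (median 33.4). No library of any region reached into the range of another, and the highest PFC value was that of library 4. Shank3 was 7.04-fold higher in the NAc than in the VTA (log2 2.82 ± 0.17, edgeR adjusted p = 2.43e-10) and higher than in the PFC (log2 0.85 ± 0.15, adjusted p = 0.000189, and 1.04 with adjusted p = 1.32e-06 without PFC library 4, in a range of 1.51e-08 to 0.000715 over 22 alternatives). Shank1 ran from 47.3 to 64.9 RPKM in the PFC (median 59.9), from 15.6 to 34.97 in the NAc (median 18.4) and from 19.4 to 23.1 in the VTA (median 20.02). The PFC was above both other regions (edgeR log2 -1.51 ± 0.15 for NAc minus PFC, adjusted p = 5.53e-07, and -1.64 ± 0.16 for VTA minus PFC, adjusted p = 9.73e-08), and NAc and VTA overlapped (log2 0.13, 95% interval -0.20 to 0.45, adjusted p = 0.488). Their order turned with the libraries used: NAc minus VTA was -0.12 in the cocaine libraries and ran from -0.05 to 0.22 when a library was left out. Shank2 lay at 24.7 to 26.3 RPKM in the PFC, 16.6 to 22.4 in the NAc and 5.70 to 8.12 in the VTA. These ranges did not meet, and all 3 Shank2 differences passed edgeR's test (NAc minus VTA log2 1.51 ± 0.086, adjusted p = 1.03e-10, NAc minus PFC -0.51 ± 0.079, adjusted p = 5.07e-05, VTA minus PFC -2.03 ± 0.088, adjusted p = 3.35e-12).

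The SAPAP genes diverged in the same fashion. Dlgap3 ran from 101 to 153 RPKM in the NAc (median 126), from 21.6 to 28.0 in the VTA (median 26.9) and from 78.8 to 119 in the PFC (median 90.1). The VTA stood apart from both other regions, whose ranges overlapped. Dlgap3 was 5.50-fold higher in the NAc than in the VTA (log2 2.46 ± 0.13, edgeR adjusted p = 6.23e-11) and higher than in the PFC by log2 0.42 ± 0.12 (adjusted p = 0.00868). That last difference was not past the threshold in the cocaine libraries (log2 0.13, adjusted p = 0.14) or in the saline libraries at 1 day (log2 0.22, adjusted p = 0.37), and its smallest adjusted p over 22 alternatives was 0.00153. Dlgap1 ran from 63.1 to 87.1 RPKM in the PFC (median 79.8), from 20.9 to 35.04 in the NAc (median 23.5) and from 13.8 to 25.4 in the VTA (median 17.2). Dlgap1 was lower in the NAc than in the PFC (log2 -1.66 ± 0.14, edgeR adjusted p = 7.54e-08) and lower in the VTA than in the PFC (log2 -2.23 ± 0.15, adjusted p = 7.8e-10), and NAc exceeded VTA by log2 0.57 ± 0.14 (adjusted p = 0.00205), though their ranges overlapped.

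Within the Homer genes, Homer1 and Homer3 ran in opposite directions between NAc and VTA. Homer1 ran from 18.3 to 31.3 RPKM in the NAc (median 26.7), from 2.76 to 4.16 in the VTA (median 4.03) and from 16.8 to 24.9 in the PFC (median 19.9). VTA libraries lay far below all others. Homer1 was 7.58-fold higher in the NAc than in the VTA (log2 2.92 ± 0.16, edgeR adjusted p = 8.39e-11), the largest NAc to VTA difference of the 9 genes, and NAc and PFC did not pass the test (log2 0.34, 95% interval 0.04 to 0.63, adjusted p = 0.0671). That Homer1 difference passed the threshold when NAc library 1 or 2, VTA library 1 or PFC library 4 was left out (edgeR adjusted p = 0.0115, 0.0421, 0.0424 and 0.0215) and in the saline libraries at 1 day (0.0132), with a highest adjusted p of 0.14 over 22 alternatives. Homer3 ran from 4.56 to 8.10 RPKM in the VTA (median 5.84), from 3.07 to 4.44 in the NAc (median 3.46) and from 2.75 to 3.36 in the PFC (median 3.21). All VTA libraries lay above the others. Homer3 was the only 1 of the 9 genes highest in the VTA (edgeR log2 -0.63 ± 0.13 for NAc minus VTA, adjusted p = 0.000321, and 0.77 ± 0.13 for VTA minus PFC, adjusted p = 4.93e-05). Homer2 ran from 4.78 to 8.01 RPKM in the PFC (median 7.33), from 2.81 to 5.97 in the VTA (median 3.83) and from 1.66 to 4.60 in the NAc (median 1.93). Neighbouring regions overlapped, PFC and VTA only through PFC library 4, as the other PFC libraries ran from 6.87 to 8.01. NAc was lower than both VTA (edgeR log2 -0.77 ± 0.24, adjusted p = 0.0108) and PFC (log2 -1.59 ± 0.24, adjusted p = 3.36e-05). VTA was lower than PFC (edgeR log2 -0.83 ± 0.25, adjusted p = 0.00786, in a range of 0.000162 to 0.0228 over 22 alternatives).

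Counted together, 6 of the 9 genes were higher and 2 lower in the NAc than in the VTA, where 62.5% of all 17181 genes tested passed (29.8% higher, 32.6% lower), and the median log2 difference was 1.51 for the scaffold genes and -0.03 for all genes. Against the PFC, 2 were higher and 4 lower in the NAc, where 40.7% of all genes passed (20% higher in the NAc, 20.7% lower), with medians of 0.13 and 0.02. In the VTA against the PFC, 8 were lower and 1 higher, where 57.8% of all genes passed (28.1% lower, 29.8% higher), with medians of -1.96 and 0.02. In both VTA comparisons most of the 9 genes lay on the side of a lower VTA level, where all genes were split about evenly, and no test of the list was made. In bulk tissue, fewer neurons of a kind and less of an mRNA per neuron cannot be told apart.

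**Figure D2:**
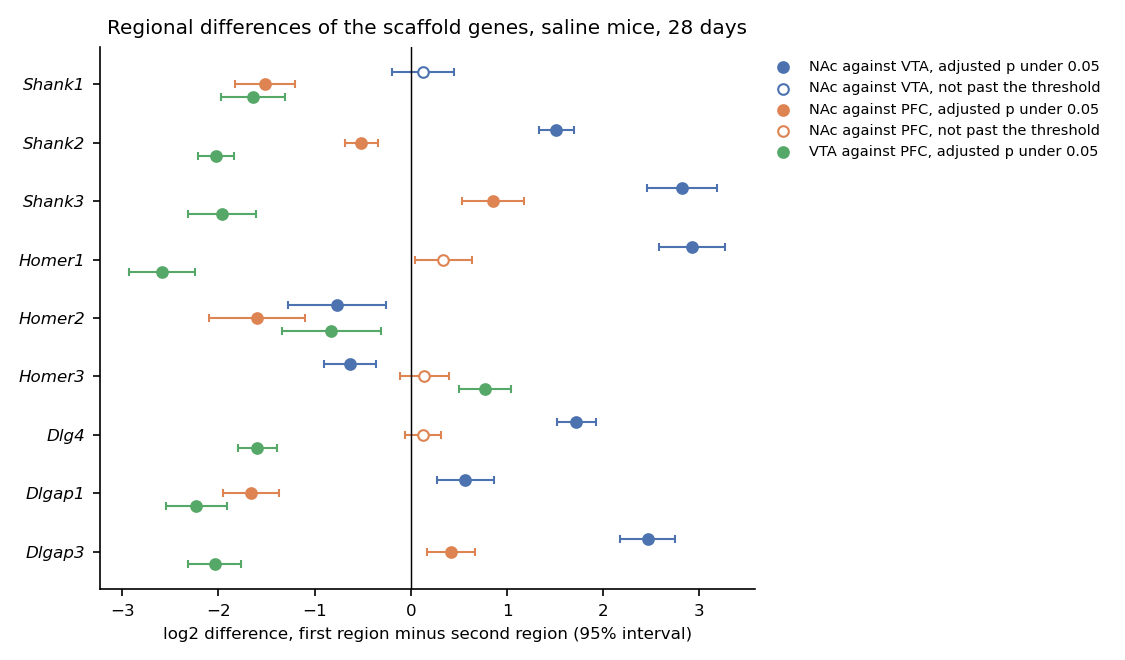
Regional log2 differences of the 9 scaffold genes (y axis) in saline libraries at 28 days, first region minus second (x axis, log2), with 95% intervals as horizontal lines and filled points past an adjusted p of 0.05. Shank3, Homer1 and Dlgap3 lie farthest to the right for NAc minus VTA, at 2.82, 2.92 and 2.46, and Homer3 alone lies right of 0 for VTA minus PFC, at 0.77.

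Most other genes of the postsynaptic density were likewise higher in the NAc than in the VTA. For scale, 29.8% of all genes were called higher and 32.6% lower in the NAc than in the VTA. Against the PFC, 20% of all genes were higher and 20.7% lower in the NAc, and 28.1% were lower in the VTA. Among the paralogs Dlg1, Dlg2, Dlg3, Dlgap2 and Dlgap4, 5 of 5 were higher in the NAc than in the VTA by edgeR (median log2 1.31, with Dlgap2 at 3.45) and 5 of 5 were lower in the VTA than in the PFC, and 1 of 5, Dlgap4, was lower in the NAc than in the PFC (log2 -0.23). Of 19 further scaffold and signalling genes of the density, 14 were higher and 2 lower in the NAc than in the VTA (median 1.80). Baiap2, which encodes the SHANK partner IRSp53, differed by log2 4.30, and the 2 lower genes were Tanc1 (-1.37) and Iqsec1 (-0.49). Against the PFC, 4 of the 19 were higher in the NAc and 3 lower. Receptors and other partners that bind the scaffold gave 6 of 10 higher and 1 lower in the NAc than in the VTA, with the Homer ligands Grm5 (mGluR5, log2 2.41) and Itpr1 (an inositol trisphosphate receptor, 3.07) among the higher. Genes of the inhibitory postsynapse gave 4 of 5 higher and 1 lower (Iqsec3, -0.94), with a smaller median of 0.40.

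The second comparison, cocaine against saline within each region and time, is what the samples were collected for. No scaffold gene passed an adjusted p of 0.05 in any of the 6 tables, by edgeR on counts (NAc at 1 day and the 28-day tables) or by limma, with a mean-variance trend, on log2(RPKM + 0.1) (VTA and PFC at 1 day), and DESeq2 also called 0 in the count tables. The share of all genes called was itself small, at 0.0126% in the NAc, 0.0665% in the VTA and 0.00693% in the PFC at 1 day, and 0.0% in each region at 28 days. At an unadjusted p under 0.05, the number of the 9 genes was 0 in the NAc, 2 in the VTA and 0 in the PFC at 1 day, against 4.01%, 15.7% and 3.78% of all genes. At 28 days it was 2 in the NAc, 3 in the VTA and 1 in the PFC, against 6.76%, 11.5% and 5.66% of all genes. The median log2 difference of the 9 genes, beside that of all genes, at 1 day was -0.03 (all genes 0.00) for the NAc, 0.10 (all genes 0.03) for the VTA and -0.07 (all genes -0.01) for the PFC. At 28 days it was -0.06 (all genes 0.00), 0.15 (all genes -0.03) and 0.03 (all genes 0.00) in the same order.

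In the NAc at 28 days, Shank3 and Dlgap3 had the smallest p-values of the 9 genes. Dlgap3 ran from 101 to 153 RPKM in saline libraries (median 126) and from 97.1 to 120 in cocaine libraries (median 108). The groups overlapped, with the higher saline libraries above every cocaine library. The cocaine minus saline difference was log2 -0.26 (95% interval -0.47 to -0.05, edgeR unadjusted p = 0.0171, adjusted p = 0.672), and the exact two-sided permutation test of the levels gave p = 0.0411. Exact p-values here and below are unadjusted. None of the 54 exact tests passed Benjamini-Hochberg adjustment (smallest adjusted p = 0.117). Shank3 ran from 57.2 to 81.7 RPKM in saline libraries (median 65.9) and from 53.4 to 64.2 in cocaine libraries (median 60.4). All 6 cocaine libraries lay below the saline mean, and the groups overlapped. Its difference was log2 -0.23 (95% interval -0.42 to -0.03, edgeR unadjusted p = 0.0297, adjusted p = 0.692, exact permutation p = 0.0541). Beside these values, the medium spiny neuron genes summed to 1255 to 2133 RPKM in saline and 1235 to 1850 in cocaine libraries, and the cortical genes to 20.2 to 179 and 4.23 to 208. All 6 medium spiny neuron genes and all 5 cortical genes had a negative log2 difference (medians -0.16 and -0.54), with 0 of either list at an edgeR unadjusted p under 0.05. With group means removed, Dlgap3 and Shank3 had a Pearson's r of -0.16 and -0.54 with the cortical sum (permutation p = 0.617 and 0.0728). Their r with the medium spiny neuron sum was not computed in the NAc. The part of either list in the cocaine differences was not tested.

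In the VTA at 28 days, the 3 SHANK genes had the smallest p-values, all with the higher mean after cocaine, where Shank3 had the lower one in the NAc. Shank3 measured 8.25, 10.4, 12.6, 11.8 and 9.60 RPKM in the 5 saline libraries and 12.0, 12.7, 15.3, 12.0, 13.2 and 13.1 in the 6 cocaine libraries. All cocaine libraries were above the saline mean, and the highest saline library lay within the cocaine range. The difference was log2 0.30 (95% interval 0.08 to 0.53, edgeR unadjusted p = 0.0128, adjusted p = 0.394, exact permutation p = 0.0108). Shank1 measured 20.02, 19.4, 21.6, 23.1 and 19.6 RPKM in saline libraries and 20.99, 26.4, 28.05, 21.98, 24.8 and 26.1 in cocaine libraries. The ranges overlapped from 20.99 to 23.1, and the difference was log2 0.24 (95% interval 0.07 to 0.42, edgeR unadjusted p = 0.01001, adjusted p = 0.394). Shank2 measured 5.70, 7.61, 7.27, 8.12 and 6.22 RPKM in saline libraries and 7.66, 8.57, 8.13, 7.41, 8.47 and 8.64 in cocaine libraries. Again the upper saline libraries reached into the cocaine range, and the difference was log2 0.21 (95% interval 0.02 to 0.41, edgeR unadjusted p = 0.0316, adjusted p = 0.412). Of the other genes in this table, Dlgap3 stood at log2 0.21 (edgeR unadjusted p = 0.0587) and Homer3 at -0.33 (unadjusted p = 0.0531). The cortical genes summed to 4.66 to 84.1 RPKM in the saline and 4.34 to 19.1 in the cocaine VTA libraries, and the oligodendrocyte genes to 2995 to 5721 and 2102 to 3695, with 3 of 5 genes of each list lower at an unadjusted p under 0.05. With group means removed, Shank1, Shank2 and Shank3 had a Pearson's r of 0.38, 0.51 and 0.66 with the cortical sum. Their permutation p-values, adjusted over 45 such relations, were 0.365, 0.186 and 0.074. Without the 2 libraries farthest from the median, the r of Shank3 was 0.25. The part of the cortical and oligodendrocyte genes in the cocaine differences was not tested.

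Whether the cocaine difference itself differed between regions at 28 days was tested as an interaction over all 35 libraries. No scaffold gene passed by edgeR or DESeq2, where edgeR called 0.0339% of all genes for NAc against VTA, 0.0% for NAc against PFC and 0.0339% for VTA against PFC. At an unadjusted p under 0.05, the NAc to VTA interaction held 4 of the 9 genes, against 8.34% of all genes. They were Shank3 (log2 -0.55, adjusted p = 0.320), Dlgap3 (-0.50, adjusted p = 0.306), Dlg4 (-0.27, adjusted p = 0.461) and Shank2 (-0.24, adjusted p = 0.512). The Dlg4 call changed with saline VTA library 1. Without it the interaction was log2 -0.38 with an edgeR adjusted p of 0.042 (0.042 to 0.769 over 38 alternatives), and 64 genes in all passed in place of 6. The other interactions held 1 gene each at an unadjusted p under 0.05, Dlgap3 for NAc against PFC (log2 -0.30) and Shank3 for VTA against PFC (log2 0.38, edgeR adjusted p = 0.386), against 4.56% and 11.6% of all genes. Both include PFC saline library 4, in which Shank3 stood apart. Over 38 alternatives, leaving out that library among them, the Dlgap3 value ran from -0.37 to -0.23 and the Shank3 value from 0.23 to 0.46. In the NAc, where both times were deposited as counts, no gene of the 9 had an unadjusted p under 0.05 for a change of the cocaine difference between 1 and 28 days (5.27% of all genes), and 0.0181% of all genes passed adjustment.

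In the PFC at 28 days, Shank2 was the only pair of the 54 formed by 9 genes and 6 tables in which saline and cocaine libraries did not overlap. It measured 25.4, 26.3, 25.6, 24.7, 25.9 and 26.2 RPKM in saline libraries and 29.0, 28.1, 27.7, 27.7, 26.8 and 31.3 in cocaine libraries. The gap between the groups was small beside the level, and 0.233% of all genes in this table did not overlap either. In the other tables that share was 0.214%, 1.67% and 0.159% for the NAc, VTA and PFC at 1 day and 0.301% and 1.33% for the NAc and VTA at 28 days. The difference was log2 0.15 (95% interval 0.06 to 0.25, edgeR unadjusted p = 0.00364, adjusted p = 0.842). The exact permutation test gave p = 0.00216, the smallest that 6 against 6 libraries allow. Groups that do not overlap always give this p, so it adds nothing to the lack of overlap. Adjusted over the 54 exact tests it was 0.117. Without saline library 4 the difference was log2 0.15 with an edgeR adjusted p of 0.967 (0.353 to 0.982 over 15 alternatives). Shank3 changed side with that library, from log2 -0.07 with it to 0.10 without it, neither past the threshold.

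In the VTA at 1 day, the SAPAP genes lay on opposite sides. Dlgap1 measured 16.9, 15.8, 20.1, 15.8, 17.3 and 16.2 RPKM in saline libraries and 25.3, 26.1, 22.7, 16.9, 22.2 and 19.7 in cocaine libraries. Cocaine libraries 4 and 6 lay within the saline range and the others above it. The difference was log2 0.37 (95% interval 0.15 to 0.58, limma unadjusted p = 0.00309, adjusted p = 0.134, exact permutation p = 0.0152). Dlgap3 measured 8.17, 8.35, 8.38, 11.8, 7.33 and 6.64 RPKM in saline libraries and 7.69, 6.501, 5.82, 6.33, 5.91 and 5.89 in cocaine libraries. Only cocaine library 1 lay within the saline range. The difference was log2 -0.39 (95% interval -0.64 to -0.13, limma unadjusted p = 0.00649, adjusted p = 0.180, exact permutation p = 0.0108). These libraries also differed in cell-type genes. The cortical genes summed to 2.00 to 31.5 RPKM in saline and 6.43 to 77.3 in cocaine libraries, and the dopamine neuron genes to 660 to 1683 and 421 to 1023, with 4 of 5 dopamine neuron genes lower at an unadjusted p under 0.05 (median log2 -0.58). Of 5 microglia genes, 4 were lower at such a p (median log2 -0.45), with sums of 94.7 to 143 RPKM in saline and 60.8 to 102 in cocaine libraries, and all 3 cortical genes tested were higher (median log2 1.57). With group means removed, Dlgap3 had a Pearson's r of -0.68 with the cortical sum (permutation p = 0.0101, adjusted p = 0.057 over 45 such relations). Dlgap1 had an r of 0.045 (permutation p = 0.891). The part of these cell-type genes in the cocaine differences of the SAPAP genes was not tested.

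In the NAc and PFC at 1 day, no scaffold gene had an unadjusted p under 0.05. Homer1, whose short form is activity-induced, stood at log2 0.09 in the NAc (95% interval -0.21 to 0.40, edgeR adjusted p = 1.00) and 0.18 in the PFC (95% interval -0.09 to 0.44, limma adjusted p = 0.913). The least precise gene was Homer2 in the NAc, whose interval ran from -0.34 to 0.77, and the most precise was Dlgap1 in the PFC, from -0.11 to 0.09. Differences within these intervals were not excluded.

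**Figure D3:**
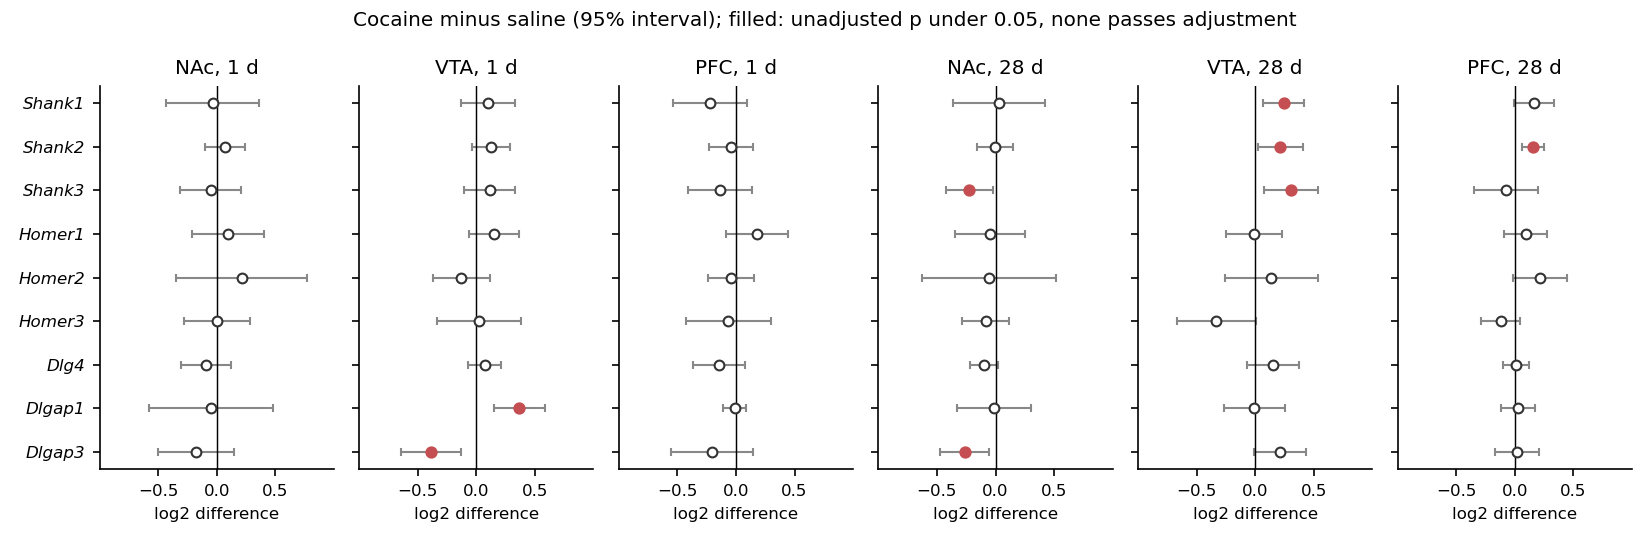
Cocaine minus saline log2 difference (x axis) of each scaffold gene (y axis) in the 6 tables, 1 panel per region and time, with 95% intervals as horizontal lines and filled points for an unadjusted p under 0.05. The filled points are Dlgap1 (0.37) and Dlgap3 (-0.39) in the VTA at 1 day, Dlgap3 (-0.26) and Shank3 (-0.23) in the NAc, Shank1 (0.24), Shank2 (0.21) and Shank3 (0.30) in the VTA and Shank2 (0.15) in the PFC at 28 days, and no point passes adjustment.

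No paralog, further density gene, binding partner or inhibitory postsynaptic gene passed an adjusted p of 0.05 for cocaine in any table. At an unadjusted p under 0.05, the VTA at 1 day held 2 of 5 paralogs, 6 of 18 further density genes (4 higher, 2 lower), 2 of 10 partners and 0 of 5 inhibitory genes, against 15.7% of all genes. The smallest adjusted p there was that of Itpr1 (log2 0.47, limma adjusted p = 0.0766), and Baiap2 stood at log2 0.87 (adjusted p = 0.131). The VTA at 28 days held 2 of 5 paralogs, 6 of 19 further density genes, all higher, 2 of 10 partners and 1 of 5 inhibitory genes, against 11.5% of all genes. Grm5 stood at log2 0.30 there (edgeR adjusted p = 0.394) and Dlgap4 at 0.21 (adjusted p = 0.389). In the NAc at 28 days only 2 of the further density genes had such a p, and in the other 3 tables no gene of the 4 lists had.

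Levels of the same region differed between the 1-day and 28-day tables, and not alike for all members. The saline mean of Dlgap3 was 23.2 RPKM (SD 6.33, n = 6) in the NAc at 1 day and 129 RPKM (SD 19.5, n = 6) at 28 days, a ratio of 5.57. No library of the earlier table reached the later range. This ratio lay at percentile 99.7 of 14196 genes, whose median ratio was 0.959 and whose 5th to 95th percentiles ran from 0.623 to 2.17. Dlgap3 was also high in the PFC (4.85, percentile 99.5) and the VTA (3.00, percentile 98.0). Shank3 had ratios of 3.19 in the NAc, 2.90 in the PFC and 2.08 in the VTA. In the same order of regions, Shank1 stood at 2.03, 2.404 and 2.10, Homer3 at 2.28, 2.04 and 2.00, Dlg4 at 1.81, 1.66 and 1.51 and Shank2 at 1.30, 1.33 and 1.10. Homer1 (0.92, 0.93 and 0.82) lay at percentiles 45.3, 47.0 and 21.3 of the genes of each region, and Dlgap1 (0.83, 0.96 and 1.09) at 31.9, 50.5 and 61.3. Homer2 (0.65, 0.74 and 0.75) lay at percentiles 6.62, 17.0 and 9.73. Dlgap3 had the highest ratio and Homer2 the lowest of the 9 genes in each region. Days of abstinence, age and the preparation of the tables cannot be told apart here, so these ratios were not tested, and no cocaine comparison crosses tables except the NAc interaction above.

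Variation between libraries of 1 group joined some members and not others. Over the 35 libraries at 28 days, with each group's mean removed, 8 of 36 pairs of members had a Pearson's r over 0.5 and 19 had an r below 0. The libraries share dissection and depth, so r is given as a description. Shank1, Shank2, Homer2 and Dlgap1 formed a set in which all 6 pairs lay between 0.74 and 0.77. Shank3 had an r of 0.61 with Homer1 and of 0.59 with Dlgap3, while Homer1 and Dlgap3 had 0.23. Without PFC saline library 4, a choice made after seeing the data, Shank3 had 0.58 with Homer1 and 0.45 with Dlgap3, 7 pairs lay over 0.5, and the set of 4 ran from 0.74 to 0.76. Over all 35 libraries, the lowest r was -0.46, for Shank1 and Homer1, followed by -0.42 for Homer3 and Dlg4. Homer1 had low values with the activity-regulated genes Egr1 (0.39), Fosb (0.35), Fos (0.24), Arc (0.13), Npas4 (0.08) and Junb (-0.0015). Other members had values as high with these genes, such as Dlgap1 with Fos (0.44) and Shank3 with Fosb (0.43). Of all 17679 genes, the most alike were Cacna1g for Shank1 (0.91), Mast2 for Shank2 (0.88), Dach1 for Shank3 (0.90, and 0.83 without PFC saline library 4), Lrrk2 for Homer1 (0.85) and Kcnj6 for Homer2 (0.88). For the remaining members they were Rela for Homer3 (0.86), Agap2 for Dlg4 (0.92), Ext1 for Dlgap1 (0.91) and 2610019F03Rik for Dlgap3 (0.75).

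**Figure D4:**
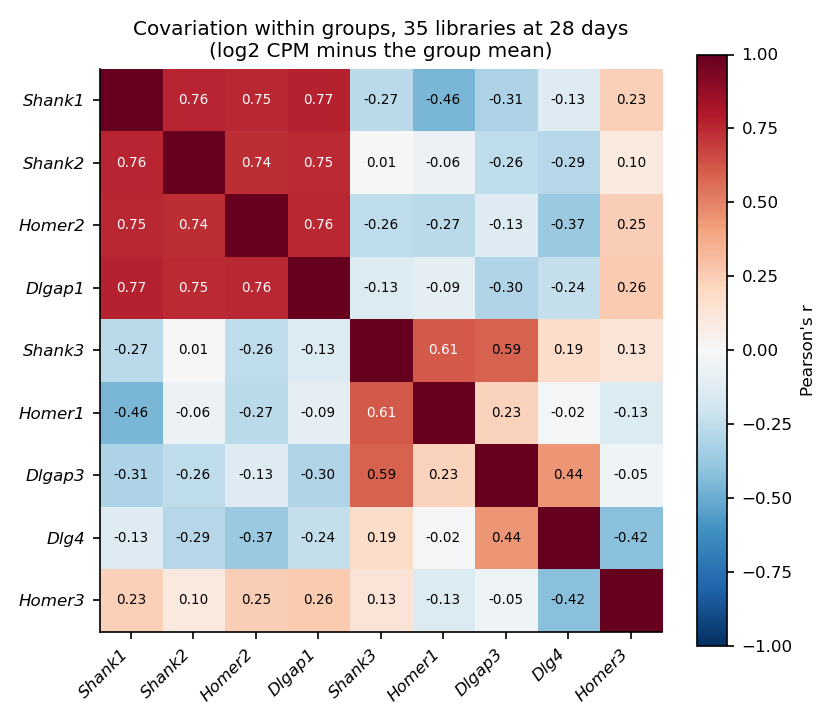
Pearson's r between each pair of scaffold genes over the 35 libraries at 28 days, as a colour for each cell, from log2 library-scaled counts minus the group mean, with genes on both axes. Shank1, Shank2, Homer2 and Dlgap1 form 1 block with r from 0.74 to 0.77, and Shank3 stands at 0.61 with Homer1 and 0.59 with Dlgap3, the latter 0.45 without PFC saline library 4.

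In the NAc, Dlgap1 and Homer2 moved with the genes of cortical excitatory neurons, a cell type that the NAc does not contain. The cortical genes summed to 3.09 to 211 RPKM in saline and 3.66 to 284 in cocaine libraries of the NAc at 1 day. With group means removed, Dlgap1 had a Pearson's r of 0.84 with the cortical sum over 12 libraries at 1 day (permutation p = 0.00064, Spearman's rho 0.89, p = 0.00027) and 0.98 without the 2 libraries farthest from the median. Homer2 had an r of 0.81 at 1 day (permutation p = 0.00093, rho 0.87, p = 0.00042) and 0.97 without those libraries. At 28 days Dlgap1 had an r of 0.87 (permutation p = 0.00013, rho 0.85, p = 0.00084, and r of 0.78 without the farthest libraries) and Homer2 0.86 (permutation p = 0.00014, rho 0.88, p = 0.00029, and r of 0.86 without them). Of 45 such relations computed, these 4 had the smallest permutation p for r, with Benjamini-Hochberg adjusted values of 0.0096, 0.0105, 0.0031 and 0.0031 in that order. The part of this signal in the cocaine values of these genes was not tested. Shank1 and Shank2, which varied with Dlgap1 and Homer2 at 28 days, had r of 0.30 and 0.085 at 1 day (adjusted p = 0.455 and 0.812) and 0.68 and 0.62 at 28 days (adjusted p = 0.065 and 0.080). Shank3 lay on the other side, at -0.67 at 1 day (permutation p = 0.0173, rho -0.70, adjusted p = 0.065) and -0.54 at 28 days (permutation p = 0.0728, rho -0.61, adjusted p = 0.136). The regional order of the same genes is the one given above: Dlgap1 and Homer2 were highest in the PFC and Shank3 in the NAc. Dlg4, whose NAc to PFC difference did not pass the test above, had an r of -0.60 at 1 day (permutation p = 0.0392, rho -0.75, adjusted p = 0.085). At 28 days its r was -0.31 (permutation p = 0.329, adjusted p = 0.449). In the PFC at 28 days, Shank3 had an r of 0.93 with the medium spiny neuron sum (permutation p = 0.0038, adjusted p = 0.034, rho 0.63, p = 0.0322), which fell to 0.32 without the 2 farthest libraries, so it rests on those, 1 of which is library 4.

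**Figure D5:**
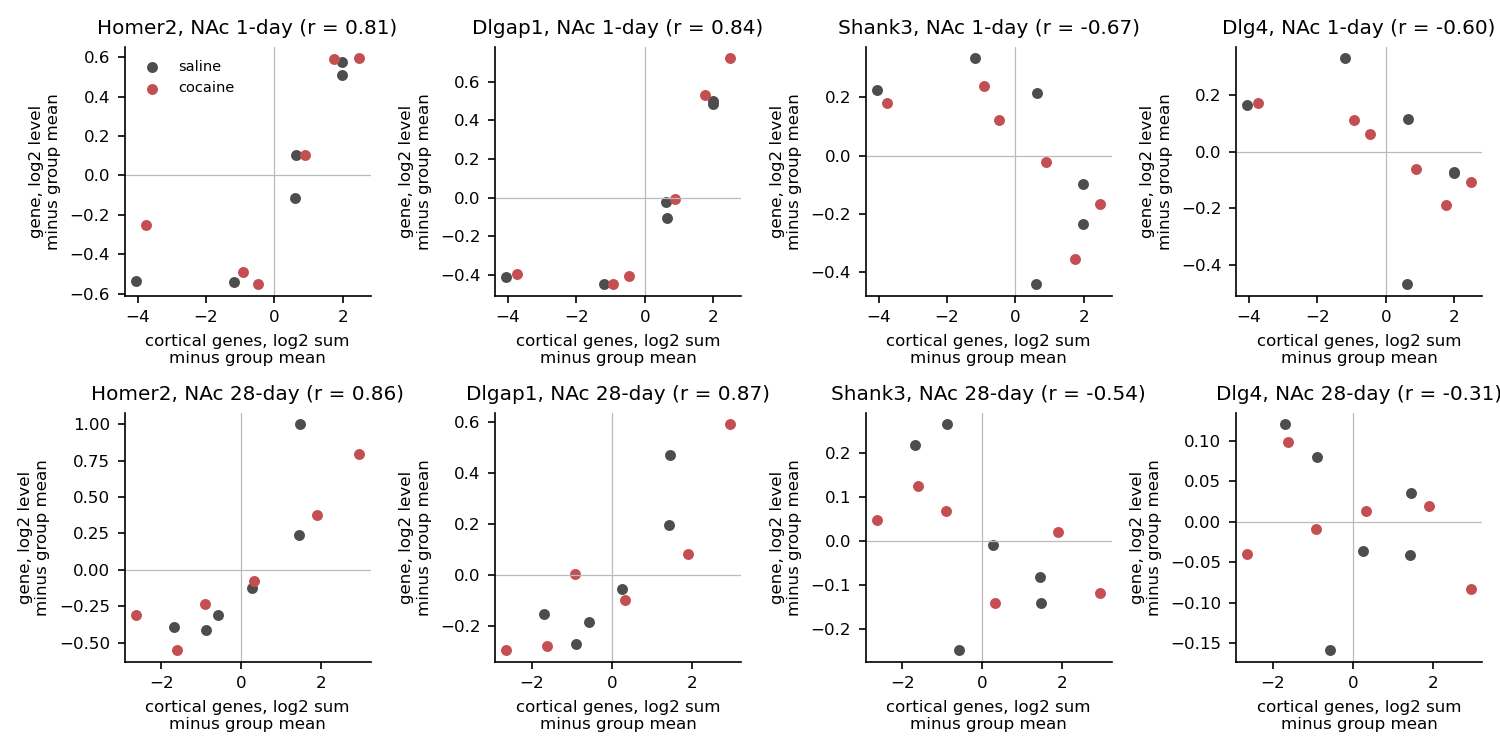
Log2 level of Homer2, Dlgap1, Shank3 and Dlg4 (y axis) against the log2 sum of 5 cortical excitatory neuron genes (x axis), both minus the group mean, for the NAc libraries at 1 day and 28 days, with saline and cocaine libraries in different colours. Libraries with more cortical signal have more Homer2 and Dlgap1 mRNA, with r of 0.81 and 0.84 at 1 day and 0.86 and 0.87 at 28 days. For Shank3 and Dlg4 the r is negative, at -0.67 and -0.60 at 1 day and -0.54 and -0.31 at 28 days.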

How the data were processed

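Processed gene tables of 71 libraries were used. The authors aligned reads to mm9 with STAR 2.4.1d, per the labels, and deposited raw counts per gene for the NAc at 1 day and the 3 regions at 28 days, and RPKM for the VTA and PFC at 1 day. The read counter, its strand setting and the library kit are not given in the sources used here, so antisense or overlapping transcripts may share reads with a gene. Columns of the authors' own comparisons (fold changes and p-values) and 30 value columns of no labelled sample were not used.

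Counts were filtered with filterByExpr (minimum count 10, total 15), TMM-normalized and tested with edgeR 4.0.16 (R 4.3.3). RPKM were tested with limma 3.58.1 (eBayes with a trend) on log2(RPKM + 0.1) for genes with a mean of at least 0.5, a scale that understates changes of low genes. P-values were Benjamini-Hochberg adjusted over all genes, with a threshold of 0.05. Whole reads could be recovered from RPKM for 100% of genes (tolerance 0.01 reads), and edgeR on them called 55 of 16132 genes in the VTA and 1 of 15740 in the PFC. Levels in count tables were scaled to RPKM by library reads and the gene lengths implied by the RPKM tables. Single levels were compared by exact two-sided permutation tests, and correlations by 100000 permutations. Both sets of p-values were Benjamini-Hochberg adjusted in SciPy 1.17.1, over 54 exact tests (smallest adjusted p = 0.117) and 45 correlations. Alternatives were DESeq2 1.42.0, its size factors, no filter, a pseudocount of 1, a replicate block, other libraries for the regions and leaving out each library. Scripts were tested on simulated data. Of 175 library pairs within groups, none were identical or closer than sampling noise (lowest chi-square per gene 4.79). Library totals, 20971967 to 49700932 reads, set the counting precision.

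The named genes were the 9 members, 4 lists of other synaptic genes with their smallest p-values, and for each member the gene with the highest correlation. The rule for the members goes by symbol and uses no measured value, but members and lists were chosen with earlier results of these data known.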

Additional observations from a re-analysis of the deposited data

Results flagged for a closer look

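Levels of the 9 genes were examined in 108 groups, and 15 had a library whose gap to the next, over the group's range, exceeded Dixon's 95% critical value, where chance gives about 1 in 20. All values are in RPKM, and the cause was not tested for any.

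In the PFC at 28 days, saline library 4, the library high in medium spiny neuron genes, had Shank3 at 56.9 (other saline libraries 30.5 to 35.2), Homer2 at 4.78 (6.87 to 8.01) and Dlgap1 at 63.1 (78.7 to 87.1). In the PFC at 1 day, cocaine library 5 was low in Shank1 at 12.9 (20.2 to 24.04), Dlg4 at 99.9 (128 to 140) and Dlgap3 at 10.8 (16.4 to 19.2), and its oligodendrocyte genes summed to 2190 against 1092 to 1468 in the other cocaine libraries. In the NAc at 28 days, saline library 1 had Homer2 at 4.60 (1.66 to 2.67) and cocaine library 3 had Dlgap1 at 37.6 (20.3 to 26.4). These were the libraries with the highest cortical sums of their groups, 179 and 208.

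In the VTA at 1 day, Dlgap3 was 11.8 in saline library 4 (6.64 to 8.38), the saline library with the lowest dopamine neuron sum (660), and 7.69 in cocaine library 1 (5.82 to 6.501). Dlgap1 was 20.1 in saline library 3 (15.8 to 17.3). Homer1 was 6.69 in cocaine library 3 (4.46 to 5.18) and Homer3 was 4.86 in cocaine library 6 (2.13 to 3.00), libraries with cortical sums of 68.5 and 77.3. In the VTA at 28 days, Shank3 was 15.3 in cocaine library 3 (12.0 to 13.2) and Dlgap1 was 16.2 in cocaine library 1 (18.6 to 20.01).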

How the results depend on the processing

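Of the counts of scaffold genes called, 48 of 48 under another method, filter or choice of libraries and 250 of 251 with a library left out stayed within 1.5 times the reported count. The exception was the NAc to VTA interaction, at 0 to 1 genes (Dlg4, without VTA saline library 1, where the other groups' spread was pooled). For NAc against PFC the count was 6 to 7. For single genes, 421 of 432 values under another method, filter or choice of libraries and 2140 of 2259 with a library left out kept their direction and side of the threshold. Values that changed sign were Dlgap1 in the PFC at 1 day with edgeR on recovered reads (0.0043), Homer1 and Dlgap1 in the VTA at 28 days with no filter (0.0030 and 0.0054), Dlg4 for the change with time in the NAc with DESeq2 size factors (-0.0038) and with DESeq2 (-0.0038), Shank1 for NAc minus VTA in cocaine libraries (-0.12), and Homer3 and Dlg4 for NAc minus PFC in saline libraries at 1 day (-0.013 and -0.0022). With a library left out, 34 values changed sign, all within 1 SE of 0 as reported. In the NAc at 1 day, the values ran for Dlgap1 from -0.23 to 0.065, Homer3 from -0.075 to 0.068, Shank1 from -0.15 to 0.053 and Shank3 from -0.12 to 0.011. In the VTA at 1 day, the values ran for Homer3 from -0.12 to 0.11. In the PFC at 1 day, the values ran for Dlgap1 from -0.028 to 0.012, Homer2 from -0.088 to 0.0073, Homer3 from -0.16 to 0.049 and Shank2 from -0.089 to 0.020. In the NAc at 28 days, the values ran for Dlgap1 from -0.16 to 0.081, Homer1 from -0.14 to 0.020, Homer2 from -0.27 to 0.21, Shank1 from -0.059 to 0.22 and Shank2 from -0.049 to 0.043. In the VTA at 28 days, the values ran for Dlgap1 from -0.088 to 0.13 and Homer1 from -0.088 to 0.039. In the PFC at 28 days, the values ran for Dlg4 from -0.020 to 0.039, Dlgap1 from -0.026 to 0.057, Dlgap3 from -0.030 to 0.10 and Shank3 from -0.13 to 0.098. For the change with time in the NAc, the values ran for Dlg4 from -0.061 to 0.063, Dlgap1 from -0.099 to 0.24, Dlgap3 from -0.17 to 0.030, Homer2 from -0.47 to 0.0047 and Shank1 from -0.019 to 0.26. For the NAc to VTA interaction, the values ran for Dlgap1 from -0.18 to 0.067, Homer1 from -0.15 to 0.035 and Homer2 from -0.43 to 0.050. For the NAc to PFC interaction, the values ran for Dlgap1 from -0.19 to 0.038, Homer3 from -0.012 to 0.083 and Shank1 from -0.22 to 0.037. For the VTA to PFC interaction, the values ran for Dlgap1 from -0.11 to 0.092 and Homer2 from -0.18 to 0.096. Between NAc and VTA in saline mice, the values ran for Shank1 from -0.050 to 0.22. Over all genes, the VTA at 1 day called 0 to 65 genes with a library left out, 55 on recovered reads and 7 with no filter in place of 10. DESeq2 called 21 in place of 2 in the NAc at 1 day, 20 in the NAc, 83 in the VTA and 2 in the PFC in place of 0 at 28 days, 12 in place of 3 for the change with time, and 55 and 95 in place of 6 for the NAc to VTA and VTA to PFC interactions. Without VTA saline library 1 the VTA to PFC interaction called 270. DESeq2 gave no adjusted p for Homer3 in the NAc to VTA interaction. The cause of these changes was not tested.

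With a replicate block in the 1-day tables, 0 of the 9 genes were called, and the VTA called 60 genes in place of 10. Same-numbered libraries correlated from -0.58 to 0.67 in the NAc, -0.31 to 0.49 in the VTA and -0.19 to 0.12 in the PFC, so the numbers were not taken as pairs. No paired analysis was possible because the numbers of the 28-day columns are not those of the labels, so the labels' numbers could not be given to these libraries, and the regional comparisons and interactions rest on them. Counting error was largest for Homer3, with 70 to 770 reads per library. The spread between 5 or 6 libraries limited the precision.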
